A study of Mus musculus with 8 samples.

Results

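The secreted Wnt inhibitors examined here were the Dickkopf genes Dkk1, Dkk2 and Dkk3, Wnt inhibitory factor 1 (Wif1), and the secreted frizzled-related genes Sfrp1, Sfrp2, Sfrp4, Sfrp5 and Frzb. All probe sets (groups of oligonucleotides that report 1 transcript region) that the platform annotation assigns to exactly 1 of these genes were taken. This gave 17 probe sets for 9 genes, of 34945 probe sets with a single gene and 45101 on the array. All 9 genes were above the filter on low signal and were among the 12999 genes tested. Genes with several probe sets were Sfrp1, with 5, and Dkk1, Dkk3, Sfrp5 and Frzb, with 2 each. For the gene-level values the probe set with the highest mean was used, and the others are given beside it.

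The 8 Affymetrix arrays measured total RNA of mandibular molar tooth germs of ICR mouse embryos, an outbred strain, with 2 arrays in each of 4 groups. Pregnant mice had received a single intraperitoneal injection on embryonic day 14, and the germs were taken 24 hours later. The 4 groups were 5E1 (10 mg/kg), 40-1a (10 mg/kg), cyclopamine (10 mg/kg) and PBS (1 ml). 5E1 is a monoclonal antibody that blocks Sonic hedgehog (Shh), and 40-1a is an antibody against a bacterial enzyme that served as its control. Cyclopamine is a plant alkaloid that inhibits Smoothened, the membrane protein through which Shh signals, and PBS is buffered saline. The agents reached the embryos through the mother, and the labels call the arrays biological replicates without saying how many embryos or litters went into each. All p-values therefore measure the spread between these arrays only. The number of arrays, and not a read depth, limits the precision. Values below are MAS5 signals, a probe set's brightness on a linear scale with each array scaled to the same mean, given for replicate 1 and then replicate 2. Differences are of group means of log2(signal + 9), and adjusted p-values come from limma over all genes tested.

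Wnt proteins are secreted signals that bind Frizzled receptors together with the co-receptors Lrp5 and Lrp6 and stabilise beta-catenin. Dickkopf proteins act on the co-receptors, whereas Wif1 and the frizzled-related proteins bind Wnt ligands outside the cell. In the tooth germ, Wnt signals pass within and between the dental epithelium and the neural crest-derived mesenchyme, and several of these inhibitors are made mainly by mesenchyme. Forced expression of Dkk1 in the oral epithelium of mice arrests tooth development early.

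The sequence upstream of the start is shown for 4 members: Dkk1, the 1 member with a Tcf/Lef-type match, Wif1 and Frzb, whose signals followed the mesenchyme markers across arrays, and Sfrp5, whose signal did not on either probe set. Each is the 250 bases before the annotated start, 5′ to 3′ on the strand of the gene and outside the annotated gene, from RefSeq on build GRCm38.p6. Capitals mark 2 kinds of match. The first is the Tcf/Lef-type motif, the letters CTTTG followed by AA, AT, TA or TT, searched on both strands. The second is the TATA box TATAAA, searched on the strand of the gene.
Dkk1, chr19:30549497-30549746, minus strand: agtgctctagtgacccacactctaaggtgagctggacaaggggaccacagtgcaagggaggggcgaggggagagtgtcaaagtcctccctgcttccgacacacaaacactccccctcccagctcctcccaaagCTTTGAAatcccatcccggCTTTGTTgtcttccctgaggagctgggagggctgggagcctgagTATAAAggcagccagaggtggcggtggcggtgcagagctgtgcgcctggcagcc
Wif1, chr10:121033754-121034003, plus strand: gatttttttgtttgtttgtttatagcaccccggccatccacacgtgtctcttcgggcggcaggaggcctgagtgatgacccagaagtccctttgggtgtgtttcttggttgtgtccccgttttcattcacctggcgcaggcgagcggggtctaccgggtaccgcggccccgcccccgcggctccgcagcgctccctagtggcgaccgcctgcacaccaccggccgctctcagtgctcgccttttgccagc
Sfrp5, chr19:42202253-42202502, minus strand: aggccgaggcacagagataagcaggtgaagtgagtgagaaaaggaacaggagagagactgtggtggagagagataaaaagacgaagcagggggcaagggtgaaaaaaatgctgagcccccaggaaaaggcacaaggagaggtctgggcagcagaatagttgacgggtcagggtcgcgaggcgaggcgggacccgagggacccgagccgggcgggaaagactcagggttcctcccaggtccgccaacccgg
Frzb, chr2:80447397-80447646, minus strand: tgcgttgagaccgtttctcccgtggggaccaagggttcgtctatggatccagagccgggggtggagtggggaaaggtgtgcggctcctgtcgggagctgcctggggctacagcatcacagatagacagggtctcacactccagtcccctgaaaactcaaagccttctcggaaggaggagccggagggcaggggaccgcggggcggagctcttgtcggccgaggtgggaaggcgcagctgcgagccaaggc

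The promoter table held 6 of the 9 members, these 4 with Dkk2 and Sfrp2. Unlike the 4 shown, the Dkk2 window overlaps the annotated gene and the Sfrp2 window lies inside it. Dkk3, Sfrp1 and Sfrp4 had no sequence analysed here. Dkk1 had a Tcf/Lef-type match at 117 to 111 bases and another at 98 to 92 bases before the start, and a TATA match at 54 to 49 bases before it. A Tcf/Lef-type match was present in 1 of 6 members, against 14.8% of all 32851 promoters. TATAAA was present in 2 of 6 members (Dkk1 and Dkk2), against 7.59% of promoters. The Gli-type motif GACCACCCA, searched on both strands, was present in 0 of 6 members and in 0.225% of promoters, so these letters are not in these windows. The GC box GGGCGG (both strands) was present in 4 of 6 members, against 32.7% of promoters, and the E-box CACCTG (both strands) in 2 of 6, against 17.2%. GC content of the 6 windows ranged from 55.6% in Dkk2 to 64.4% in Frzb, and the median of all promoters was 52.4%. The motifs do not overlap each other in these members, and a match is a description of the sequence only.

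The labels were first checked on 2 genes that Shh signalling switches on. Ptch1, the Shh receptor, had signals of 2122 and 1553 in 5E1 germs, against 11322 and 7180 in 40-1a germs, a log2 difference of -2.31 (SE 0.30). Gli1, a transcription factor of the pathway, had 240 and 348 in 5E1 germs, against 1196 and 1586 in 40-1a germs (log2 difference -2.22, SE 0.40). The 5E1 and 40-1a arrays did not overlap for either gene, although neither passed after adjustment over all genes in limma (adjusted p = 0.968 and 1). With the 3 sets of arrays described next as a block, both passed with the same differences (limma adjusted p = 0.00102 for Ptch1 and adjusted p = 0.00159 for Gli1). Those sets were found from the same data that were tested, so these p-values cannot be taken at face value. In cyclopamine germs Ptch1 had 9683 and 5793 and Gli1 2157 and 1193, against 9611 and 8474 and 1070 and 2143 in PBS germs, and both genes overlapped. The check thus separated the 5E1 arrays from their control and did not separate the cyclopamine arrays from theirs.

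The arrays also differed in a way that the injections do not give. By their correlation over all genes tested, the arrays fell into 3 sets. The first held replicate 1 of 5E1, 40-1a and PBS, the second replicate 2 of 5E1, 40-1a and cyclopamine, and the third cyclopamine replicate 1 and PBS replicate 2. Correlations within a set were 0.977 to 0.984, and those between replicates of a group were 0.946 to 0.970. The dental mesenchyme list had 19 of 20 markers tested, none at 0, and its summed signal was 66780 to 87660 in the second set of arrays, against 146200 to 154900 in the first. This sum is weighted towards the markers with the highest signals, such as Col3a1, at 14443 to 29289 over the arrays. Single markers need not follow it. In the 40-1a group 15 of 19 were lower in replicate 2, while Barx1 had 3696 and 3910. The dental epithelium list (16 of 18 tested, none at 0) summed to 153900 to 157800 in the second set, against 92960 to 95190 in the first. Markers of mesenchyme and epithelium were thus both present, as the tissue label says. Markers of tissues that the label does not name also varied over the arrays. Skeletal muscle (14 of 15 tested) summed to 1331 to 12250, and suprabasal oral epithelium (11 of 12 tested) to 22100 to 92950. Cyclopamine replicate 1 also stood apart in the signal of the 18S ribosomal RNA control probe sets, which was 2548 there and 52.9 to 448 on the other arrays.

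Dkk1 encodes an inhibitor that binds Lrp5 and Lrp6 and, with Kremen proteins, takes them off the cell surface. Its signal was 765 and 241 in 5E1 germs, against 597 and 595 in 40-1a germs. In cyclopamine germs it was 500 and 401, against 511 and 719 in PBS germs. The 5E1 arrays lay on both sides of the 40-1a arrays, whereas both cyclopamine arrays were just below both PBS arrays. The log2 differences were -0.46 (SE 0.47, 95% interval -1.55 to 0.64) for 5E1 minus 40-1a and -0.43 (SE 0.47, -1.52 to 0.67) for cyclopamine minus PBS. The second Dkk1 probe set gave -0.45 and -0.59 for these differences.

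Dkk2, which can inhibit or activate Wnt signalling depending on the context, had 2301 and 644 in 5E1 germs, against 1834 and 864 in 40-1a germs. It had 2003 and 679 in cyclopamine germs, against 2365 and 1377 in PBS germs. In every group replicate 1 was the higher array, and both pairs of groups overlapped. The log2 differences were -0.05 (SE 0.71, 95% interval -1.69 to 1.60) for 5E1 minus 40-1a and -0.62 (SE 0.71, -2.27 to 1.02) for cyclopamine minus PBS.

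Dkk3 is the divergent member of the Dickkopf family, which does not share the co-receptor binding of Dkk1. It had 1084 and 755 in 5E1 germs, against 1130 and 811 in 40-1a germs. It had 582 and 690 in cyclopamine germs, against 1279 and 1132 in PBS germs. The cyclopamine arrays were the lowest of all 8 and the PBS arrays the highest, while 5E1 and 40-1a overlapped. Cyclopamine minus PBS was -0.92 on the log2 scale (SE 0.25, 95% interval -1.49 to -0.35), ranked 17 of 12999 genes by p in limma, with an adjusted p of 0.982. For 5E1 minus 40-1a the difference was -0.08 (SE 0.25, -0.65 to 0.49).

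The second Dkk3 probe set did not show the same separation. It had 903 and 592 in cyclopamine germs, against 938 and 802 in PBS germs, and the groups overlapped. Its log2 difference was -0.24 (SE 0.38). For 5E1 minus 40-1a it was 0.26 (SE 0.38), of the opposite sign to the first probe set. The 2 probe sets therefore disagree on the size of the cyclopamine difference, and which of them follows the Dkk3 transcript was not tested.

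**Figure D1:**
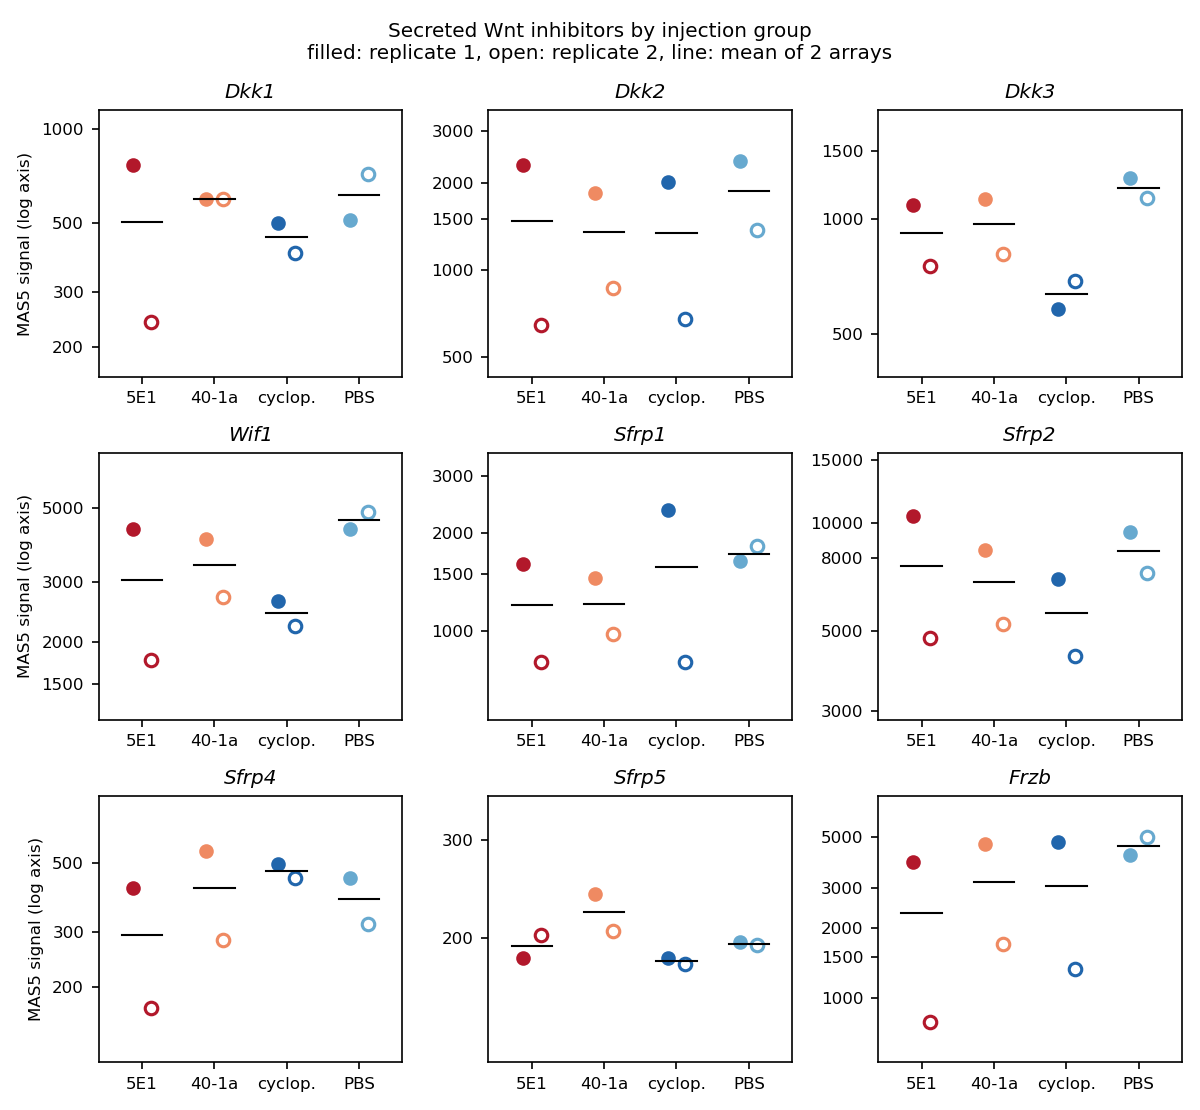
MAS5 signal (log axis) of each of the 9 Wnt inhibitors on the 8 arrays, by injection group, with replicate 1 filled, replicate 2 open and the mean of the 2 arrays as a line. Replicate 2 is below replicate 1 for most members in the 5E1, 40-1a and cyclopamine groups, and the Sfrp5 probe set shown stays between 180 and 240.

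Wif1 binds Wnt ligands directly through its WIF domain. Its signal was 4329 and 1761 in 5E1 germs, against 4027 and 2708 in 40-1a germs, and the groups overlapped. In cyclopamine germs it was 2648 and 2218, against 4321 and 4835 in PBS germs, with no overlap. The log2 difference was -0.26 (SE 0.39, 95% interval -1.16 to 0.64) for 5E1 minus 40-1a. For cyclopamine minus PBS it was -0.91 (SE 0.39, -1.81 to -0.01), with an adjusted p of 0.982. Wif1 has 1 probe set, so no second value stands beside this difference.

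Among the frizzled-related genes, Sfrp1, Sfrp2 and Sfrp5 form one subgroup of related inhibitors. Sfrp2 had 10419 and 4774 in 5E1 germs, against 8418 and 5244 in 40-1a germs. It had 6962 and 4251 in cyclopamine germs, against 9453 and 7259 in PBS germs. Both cyclopamine arrays were below both PBS arrays, although each pair of replicates was far apart. Log2 differences of the groups came to 0.09 (SE 0.41, 95% interval -0.86 to 1.03) for 5E1 minus 40-1a and -0.61 (SE 0.41, -1.55 to 0.34) for cyclopamine minus PBS. Sfrp2 was the 1 member above 0 in the antibody comparison.

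Sfrp1 had 1603 and 802 in 5E1 germs, against 1449 and 974.8 in 40-1a germs. It had 2348 and 799 in cyclopamine germs, against 1635 and 1818 in PBS germs. The 2 cyclopamine arrays were the highest and the lowest of all 8. On the log2 scale the differences were -0.07 (SE 0.51, 95% interval -1.25 to 1.11) for 5E1 minus 40-1a and -0.33 (SE 0.51, -1.51 to 0.85) for cyclopamine minus PBS.

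The 5 Sfrp1 probe sets spread from -1.09 to 0.18 for cyclopamine minus PBS, 4 of them below 0. The lowest had 692 and 358 in cyclopamine germs, against 1156 and 997 in PBS germs (log2 difference -1.09, SE 0.40). The next had 412 and 563 in cyclopamine germs, against 980 and 821 in PBS germs (-0.89, SE 0.34). On both of these probe sets the groups did not overlap, and the adjusted p over all probe sets was 0.965. The highest had 888 and 705 in cyclopamine germs, against 888 and 545 in PBS germs, a difference of 0.18 (SE 0.29). The probe sets of this gene thus disagree in size and in sign.

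**Figure D2:**
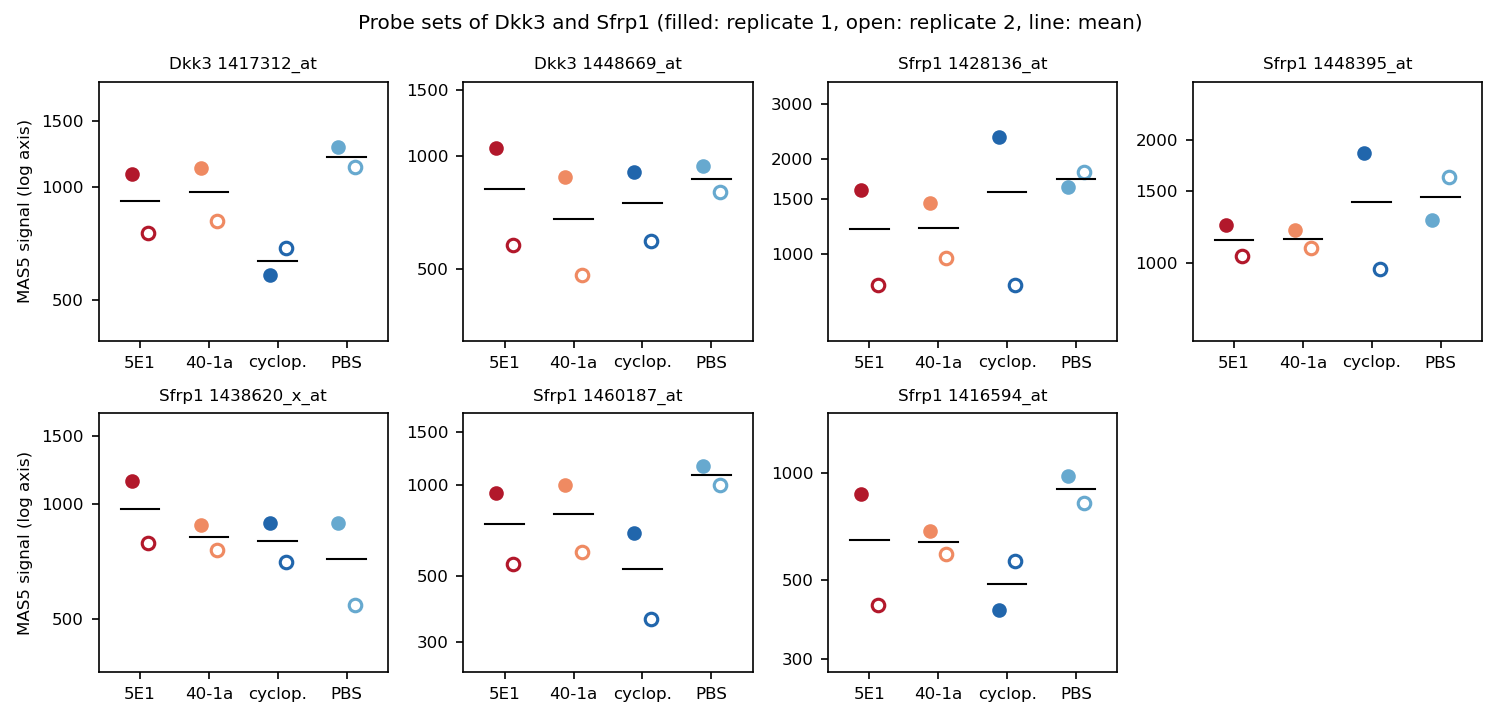
MAS5 signal (log axis) of the 2 probe sets of Dkk3 and the 5 of Sfrp1 on the 8 arrays, by injection group, with replicate 1 filled, replicate 2 open and the mean as a line. Cyclopamine arrays lie below PBS arrays without overlap on 1 Dkk3 and 2 Sfrp1 probe sets.

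Sfrp5 had 185 and 203 in 5E1 germs, against 240 and 206 in 40-1a germs. It had 184 and 180 in cyclopamine germs, against 197 and 194 in PBS germs. Neither pair of groups overlapped, but all 8 values lay within a factor of 1.34. The log2 differences were -0.19 (SE 0.23, 95% interval -0.74 to 0.35) for 5E1 minus 40-1a and -0.10 (SE 0.23, -0.64 to 0.44) for cyclopamine minus PBS. The second Sfrp5 probe set varied more, between 73.0 and 187, and gave -0.55 (SE 0.36) and -0.63 (SE 0.36) for these differences.

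Sfrp4 and Frzb (also called Sfrp3) form the other subgroup. Sfrp4 had 415 and 172 in 5E1 germs, against 547 and 283 in 40-1a germs. It had 498 and 449 in cyclopamine germs, against 449 and 320 in PBS germs. The antibody groups overlapped, and the lower cyclopamine array was just under the higher PBS array. The differences were -0.54 on the log2 scale (SE 0.45, 95% interval -1.59 to 0.51) for 5E1 minus 40-1a and 0.31 (SE 0.45, -0.74 to 1.36) for cyclopamine minus PBS. Sfrp4 was the 1 member above 0 in the cyclopamine comparison.

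Frzb, which is best known as a Wnt antagonist of the growing skeleton, varied most among the members. It had 3886 and 784 in 5E1 germs, against 4641 and 1710 in 40-1a germs. It had 4768 and 1329 in cyclopamine germs, against 4160 and 5023 in PBS germs. Both pairs of groups overlapped, and the highest array was 6.41 times the lowest, compared with 1.34 to 3.67 times for the other members. The log2 differences were -0.69 (SE 0.84, 95% interval -2.64 to 1.27) for 5E1 minus 40-1a and -0.86 (SE 0.84, -2.81 to 1.10) for cyclopamine minus PBS. The second Frzb probe set gave -0.75 (SE 0.87) and -1.50 (SE 0.87).

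Whether the Shh-blocking antibody moved the inhibitors as a group was read from 5E1 minus 40-1a. 0 of 9 members passed an adjusted p of 0.05 in limma, and 0% of the 12999 genes tested did. At an unadjusted p under 0.05 the counts were 0 members and 158 genes (1.22%). The difference was below 0 for 8 of 9 members, against 53.4% of all genes, with a median of -0.19 among the members and -0.01 among all genes. Without overlap between the groups, 1 member was lower (Sfrp5), against 10.8% of all genes, and 0 were higher, against 8.65%. The dental mesenchyme markers stood beside this with 16 of 19 below 0 and a median of -0.20. Their summed signal was 154900 and 66780 in 5E1 germs, against 152100 and 87660 in 40-1a germs, and their part in the result was not tested. The sign of the members rested on single arrays: without 5E1 replicate 2, 1 of 9 was below 0 (median 0.39), and without 40-1a replicate 1, 3 of 9 were (median 0.03). In the whole-germ RNA used here, fewer cells of a type and less RNA per cell cannot be told apart.

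Within the first set of arrays, which holds replicate 1 of both antibodies, 4 of 9 members were lower in 5E1 than in 40-1a germs, with a median log2 difference of 0.10. Within the second set, which holds replicate 2 of both, 9 of 9 were lower, with a median of -0.42. The mean of the mesenchyme markers differed by 0.06 in the first set and by -0.62 in the second. Dkk1 had differences of opposite sign in these sets, 0.35 and -1.27. With 1 array of each group in a set, these values carry no test.

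The same question was asked of cyclopamine, injected as a Smoothened inhibitor, with cyclopamine minus PBS. Ptch1 (-0.27, SE 0.30) and Gli1 (0.08, SE 0.40) did not separate these groups. Inhibition of the pathway in the cyclopamine germs is therefore not shown by these arrays. 0 of 9 members passed an adjusted p of 0.05 in limma, and 0% of genes did. At an unadjusted p under 0.05 there were 2 members (Dkk3 and Wif1) and 205 genes (1.58%). The difference was below 0 for 8 of 9 members, against 46.9% of all genes, with a median of -0.61 among the members and 0.02 among all genes. Dkk1, Dkk3, Wif1, Sfrp2 and Sfrp5 were lower without overlap, 5 of 9 members against 14.4% of all genes, and 0 were higher, against 17.8%. Of the dental mesenchyme markers 18 of 19 were below 0 (median -0.37), while 15 of 16 dental epithelium markers and 14 of 14 skeletal muscle markers were above 0, with medians of 0.44 and 1.09. The summed signal was 124100 and 86990 in cyclopamine germs, against 146200 and 126100 in PBS germs, for mesenchyme, and 3159 and 12250 in cyclopamine germs, against 4002 and 2167 in PBS germs, for muscle (14 of 15 tested, none at 0). The part of these markers in the result was not tested. Without cyclopamine replicate 2, 5 of 9 members were below 0 (median -0.08).

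Cyclopamine replicate 1 and PBS replicate 2 make up the third set of arrays, so 1 comparison could be made within it. There 6 of 9 members were lower in cyclopamine than in PBS germs, with a median log2 difference of -0.07 and a mesenchyme mean difference of -0.12. Dkk3 differed by -0.95 and Wif1 by -0.87, compared with -0.92 and -0.91 between the groups as a whole, which include these 2 arrays. On the second Dkk3 probe set the cyclopamine array was the higher one, with 903 against 802 in the PBS array. Frzb differed by -0.08 and Dkk2 by 0.54. Sfrp4 was higher in the cyclopamine array, by 0.62. With 1 array of each group in this set, these values carry no test. The cyclopamine array is also the one that stood apart in the 18S control signal, at 2548.

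The antibody groups were also set against PBS, and these comparisons share the PBS arrays with each other and with the cyclopamine comparison. 0 of 9 members passed an adjusted p of 0.05 in limma in 5E1 minus PBS and in 40-1a minus PBS, and 0% of genes did in each. At an unadjusted p under 0.05 there were 0 members in each, and 193 and 88 genes (1.48% and 0.677%). In 5E1 minus PBS 9 of 9 members were below 0 (52.7% of all genes), between -1.38 for Frzb and -0.02 for Sfrp5, and 3 were lower without overlap (Dkk3, Sfrp1 and Frzb, against 12.4% of genes) and 0 higher (9.95%). In 40-1a minus PBS 7 of 9 members were below 0 (50.7% of all genes), between -0.70 for Frzb and 0.18 for Sfrp5. There 3 members were lower without overlap (Dkk3, Wif1 and Sfrp1, against 10.8%) and 1 higher (Sfrp5, against 9.69%). Without 5E1 replicate 2, 5 of 9 members were below 0 in 5E1 minus PBS, and without 40-1a replicate 2, 4 of 9 were in 40-1a minus PBS. Dental mesenchyme markers were below 0 in 18 of 19 in each of these comparisons (median -0.64 for 5E1 minus PBS and -0.28 for 40-1a minus PBS). Endothelium markers were below 0 in 10 of 10 and dental epithelium markers above 0 in 16 of 16, again in each, and the part of these markers was not tested. The control antibody group, which received no Shh blocker, was also below PBS for most members, and PBS had the highest group mean for 7 of 9 members.

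Over both blocking agents minus both controls, which draws on the same arrays again, 9 of 9 members were below 0, against 48.6% of all genes, with a median of -0.34. Of these agents only 5E1 was separated from its control by Ptch1 and Gli1. 0 members passed an adjusted p of 0.05 in limma (0% of genes), and at an unadjusted p under 0.05 there were 1 member and 160 genes (1.23%). Dkk3 had the smallest p, with a log2 difference of -0.50 (SE 0.17, 95% interval -0.90 to -0.09, adjusted p = 1), followed by Wif1 at -0.59 (SE 0.27, -1.22 to 0.05, adjusted p = 1). 0 members were lower without overlap, against 0.754% of all genes, and 0 higher, against 0.615%. The second Dkk3 probe set was at 0.0092 (SE 0.27) in this comparison, so the Dkk3 difference was seen on 1 of its 2 probe sets. Beside the members, 17 of 19 dental mesenchyme markers were below 0 (median -0.42), while 15 of 16 dental epithelium and 14 of 14 skeletal muscle markers were above 0 (medians 0.21 and 0.56), and their part in the result was not tested. Without 5E1 replicate 2, 5 of 9 members were below 0 (median -0.04), and without 40-1a replicate 1, 8 of 9 were (median -0.09).

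Whether the antibody and cyclopamine differences themselves differed was tested as (5E1 minus 40-1a) minus (cyclopamine minus PBS). 0 of 9 members passed an adjusted p of 0.05 in limma (0% of genes), and at an unadjusted p under 0.05 there were 1 member and 187 genes (1.44%). The member was Dkk3, at 0.84 on the log2 scale (SE 0.35, 95% interval 0.03 to 1.64, adjusted p = 1). The second Dkk3 probe set was at 0.50 (SE 0.54). This second-order difference was below 0 for 3 of 9 members, against 54.8% of all genes, and for 2 to 6 of 9 when 1 array at a time was left out, with 6 without 5E1 replicate 1 or cyclopamine replicate 2. Sfrp4 was furthest below 0, at -0.85 (SE 0.64, -2.33 to 0.63).

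**Figure D3:**
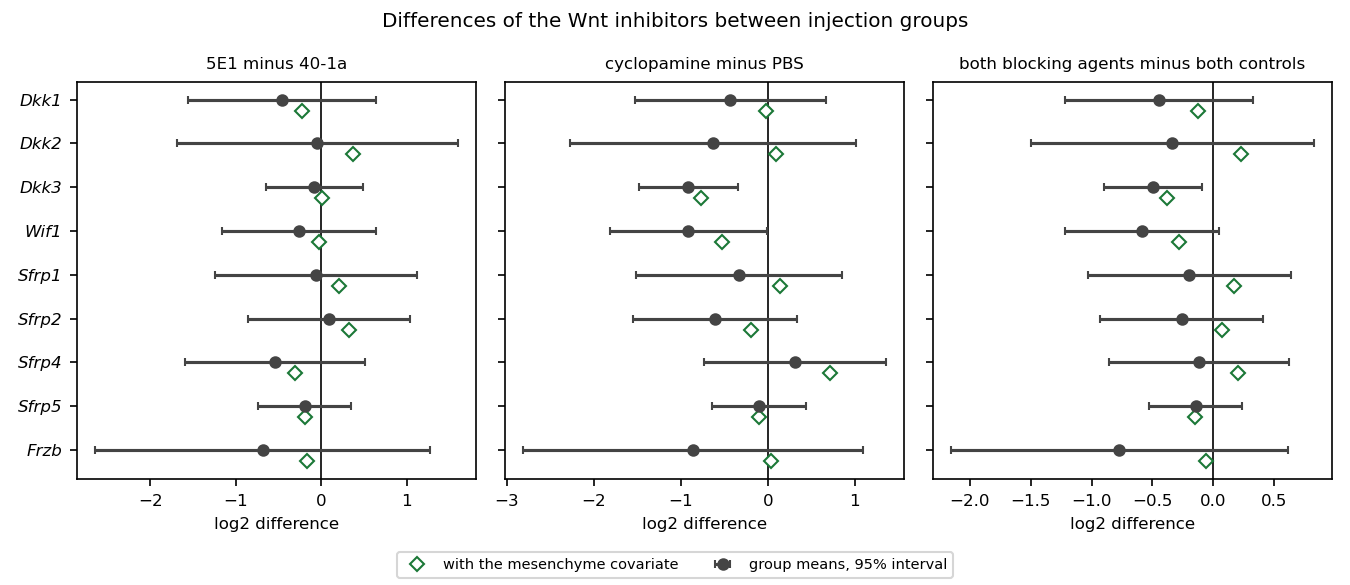
Log2 difference of each of the 9 Wnt inhibitors for 5E1 minus 40-1a, cyclopamine minus PBS and both blocking agents minus both controls, as the limma estimate from the group means with its 95% interval (dots and bars) and as the estimate with the mesenchyme mean as a covariate (open diamonds). The intervals include 0 except for Dkk3 and Wif1 in cyclopamine minus PBS and Dkk3 in the pooled comparison, and the diamonds of Dkk2 and Frzb lie close to or above 0 in the cyclopamine panel.

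The members were set against the tissue make-up of each array through the mean log2 level of the 19 mesenchyme markers. The mean of the 9 members was 10.58 and 9.38 in 5E1 germs, against 10.56 and 9.90 in 40-1a germs, and 10.37 and 9.69 in cyclopamine germs, against 10.57 and 10.48 in PBS germs. The mesenchyme mean was 12.06 and 10.65 in 5E1 germs, against 12.001 and 11.27 in 40-1a germs, and 11.83 and 11.12 in cyclopamine germs, against 11.96 and 11.96 in PBS germs. The 3 arrays with the lowest mesenchyme mean were the 3 with the lowest member mean, in the same order. The members' mean minus the mesenchyme mean stayed between -1.48 and -1.27 on all 8 arrays. Its SD over the arrays was 0.07, compared with 0.47 for the members' mean as measured. Because the arrays lie in separate sets, no correlation across them is given, and these SDs carry the same limit. A mean of 9 genes can also cancel differences of single members. The SDs of single members relative to the mesenchyme mean ran from 0.22 to 0.53. No such SD was computed for other sets of 9 genes.

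Member by member, the spread over the 8 arrays was smaller relative to the mesenchyme mean than as measured for 7 of 9 genes (77.8%). The share was 9.31% of the 12980 genes tested outside the mesenchyme list. A gene that varies little over the arrays can only gain spread when the mesenchyme mean is subtracted. Those genes were not matched to the members in spread, so the 2 shares are not like for like. Wif1 had an SD of 0.22 relative to the mesenchyme mean and 0.53 as measured, and Sfrp2 had 0.23 and 0.47. Frzb had 0.52 relative to it and 1.02 as measured, and so kept more spread than Wif1. The exceptions were Dkk3, with 0.43 and 0.41, and Sfrp5, with 0.53 and 0.13. With so small a spread as measured, this outcome was fixed in advance for that Sfrp5 probe set. The second Dkk3 probe set had 0.28 relative to the mesenchyme mean and 0.40 as measured, so Dkk3 was an exception on 1 of its 2 probe sets. The second Sfrp5 probe set had 0.60 and 0.41, so its spread was also larger relative to the mesenchyme mean, but its signal was not near constant as that of the first was. Of all 17 member probe sets, 12 had the smaller spread relative to the mesenchyme mean, among them 3 of the 5 of Sfrp1.

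**Figure D4:**
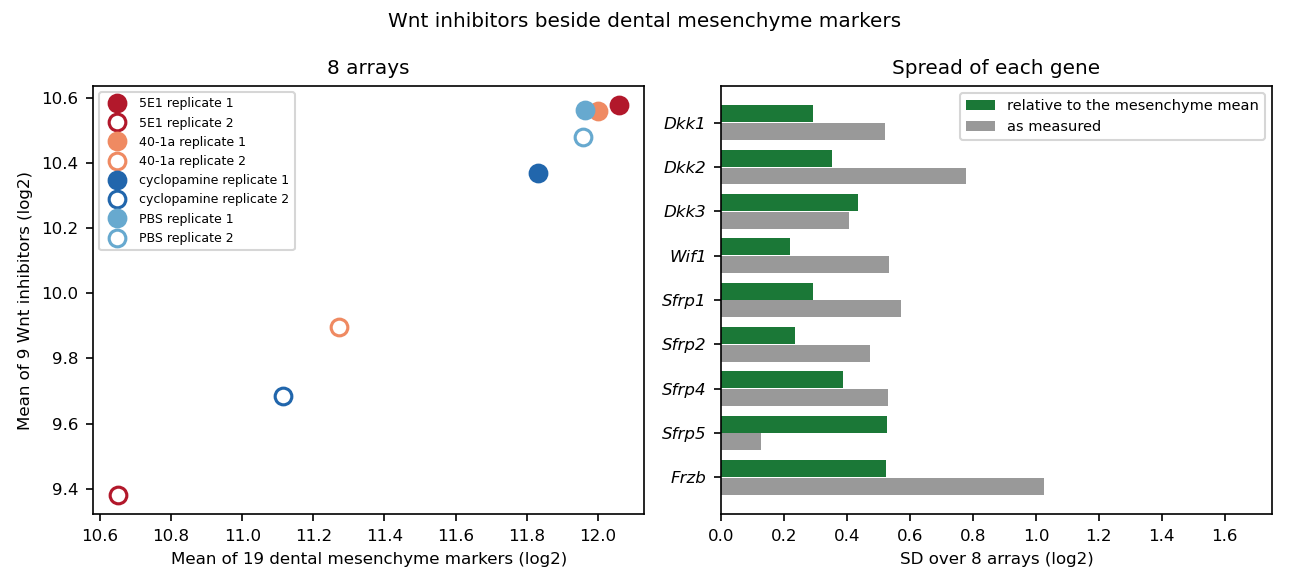
Left, mean log2 level of the 9 Wnt inhibitors against that of 19 dental mesenchyme markers, 1 point per array; right, SD over the 8 arrays of each inhibitor's log2 level relative to the mesenchyme mean (green) and as measured (grey). Replicate 2 of 5E1, cyclopamine and 40-1a is low on both axes, and the green bar is the shorter one for 7 of 9 genes.

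The second set of arrays, taken against the first, differed in the members and in most tissue marker lists. All 9 members were lower, averaging -0.91 (log2), with Frzb at -1.79, Dkk2 at -1.56 and Sfrp5 at -0.07. The mesenchyme markers were lower in 19 of 19 (mean -0.995), and so were 6 of 6 blood and macrophage markers (mean -0.73), 10 of 10 endothelium markers (mean -0.64) and 4 of 4 bone markers (mean -0.45). Of the cartilage markers 6 of 10 were lower (mean -0.33), and of the nerve and glia markers 2 of 6 (mean -0.16). 0 of 16 dental epithelium markers were lower (mean 0.72), and the skeletal muscle and suprabasal oral epithelium markers averaged 1.49 and 1.53 higher. The arrays of the second set did not share the muscle rise evenly. The muscle mean (log2) was 8.09 on 5E1 replicate 2, 9.30 on 40-1a replicate 2 and 9.46 on cyclopamine replicate 2. In the first set it was 8.01, 6.49 and 7.90 on replicate 1 of 5E1, 40-1a and PBS. Over all genes tested 51.7% were lower, with a median of -0.02, and 3.32% were lower by at least 1 on the log2 scale, among them Frzb and Dkk2. These sets of arrays were found from the data, they carry no test, and their source is not given in the labels.

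Replicates of a group were compared in the same way. For 5E1 and 40-1a these are arrays of the first and second set again, so the values are not a separate observation. In the 5E1 group replicate 2 was below replicate 1 for 8 of 9 members, with a median of -1.23 and a mesenchyme mean difference of -1.41. The 40-1a group had 9 of 9 (median -0.57, mesenchyme -0.73), the cyclopamine group 8 of 9 (median -0.31, mesenchyme -0.72) and the PBS group 5 of 9 (median -0.02, mesenchyme -0.01). Of all genes, 50.1% to 55.6% were lower in replicate 2 of a group. In the PBS group, whose arrays had nearly equal mesenchyme means, members differed in both directions, from -0.78 for Dkk2 to 0.49 for Dkk1. The small median of the members therefore does not mean that each member was stable. Single mesenchyme markers also differed in both directions there, and 11 of 19 were lower in replicate 2. Prrx1 had 7921 and 5373 and Msx1 2452 and 5649, so nearly equal means do not show an equal make-up. The part of mesenchyme in these differences was not tested.

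With the mesenchyme mean of each array as a covariate in limma, 5 of 9 members were below 0 in 5E1 minus 40-1a (median -0.03) and 5 of 9 in cyclopamine minus PBS (median -0.02). Frzb came to -0.17 (SE 0.21) in the antibody comparison and 0.04 (SE 0.22) in the cyclopamine comparison. In cyclopamine minus PBS Dkk3 was at -0.77 (SE 0.22) with the covariate and -0.92 without it, Wif1 at -0.52 (SE 0.17) and -0.91, and Sfrp4 at 0.72 (SE 0.28) and 0.31, each covariate value with an adjusted p of 1. The fit leaves 3 residual degrees of freedom, and the covariate is itself measured on the same arrays, so a difference between groups in mesenchyme would be taken out with it.

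The rest of the Wnt pathway was described from 5 further lists. Of the other Wnt antagonists 10 of 14 were above the filter, and in 5E1 minus 40-1a 0 passed adjustment, 4 were above 0 and 6 below. Sostdc1, a secreted antagonist of both BMP and Wnt signals that is known in mice to limit tooth number, had 5146 and 4400 in 5E1 germs, against 12303 and 9416 in 40-1a germs. Its log2 difference was -1.18 (SE 0.20, limma adjusted p = 1), and the groups did not overlap. With the sets of arrays as a block the same difference passed (limma adjusted p = 0.0157), but those sets were found from these same data. Dkk4, a further Dickkopf gene that is expressed in epithelial placodes, had 244 and 427 in 5E1 germs, against 224 and 188 in 40-1a germs (0.64, SE 0.32). In cyclopamine minus PBS 0 of 10 passed, with Rnf43, which removes Frizzled receptors, at 0.69 (SE 0.70) and Sostdc1 at -0.37 (SE 0.20).

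Of the receptors and co-receptors all 16 were tested, and 8 were above and 8 below 0 in each comparison, with 0 passing adjustment. Lrp4, a receptor that binds Sostdc1, was at 0.55 (SE 0.20) and the Frizzled gene Fzd2 at -0.33 (SE 0.22) in 5E1 minus 40-1a. Fzd3 was at 0.59 (SE 0.19) and the Wnt5a receptor Ror2 at -0.50 (SE 0.35) in cyclopamine minus PBS.

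Of the Wnt ligands 11 of 19 were tested and 0 passed adjustment. In 5E1 minus 40-1a 4 were above 0 and 7 below, with Wnt10b, an epithelial ligand of the tooth, at 0.85 (SE 0.47) and Wnt9a at -0.67 (SE 0.40). In cyclopamine minus PBS 6 were above 0 and 5 below, with Wnt4 at 1.07 (SE 0.56) and the mesenchymal ligand Wnt5a at -0.83 (SE 0.45). Wnt5a had 1753 and 854 in cyclopamine germs, against 2254 and 2101 in PBS germs.

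Of the R-spondin and Lgr genes, which encode enhancers of Wnt signalling and their receptors, 6 of 7 were tested and 0 passed adjustment. In 5E1 minus 40-1a 3 were above 0 and 3 below, with Lgr4 at 0.12 (SE 0.17) and Rspo2 at -0.85 (SE 0.37). In cyclopamine minus PBS 1 was above 0 and 5 below, with Lgr6 at 0.07 (SE 0.45) and Lgr4 at -0.21 (SE 0.17). Their mean differed by -0.72 between the second set of arrays and the first, beside -0.91 for the members.

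Of the genes that Wnt and beta-catenin switch on, 14 of 15 were tested and 0 passed adjustment. In 5E1 minus 40-1a 12 were above 0 and 2 below. Apcdd1, a membrane-bound Wnt inhibitor that is also a Wnt target, had 6579 and 5637 in 5E1 germs, against 3983 and 3100 in 40-1a germs (0.79, SE 0.27), and Nkd2 was at -0.22 (SE 0.35). In cyclopamine minus PBS 6 were above 0 and 8 below, with Cd44 at 0.31 (SE 0.34) and Nkd1, an intracellular feedback inhibitor, at -1.01 (SE 0.50).

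The genes most like each member were named by Pearson's r over the 8 arrays, among all 12999 genes tested, as a description with no test. The arrays fall into the 3 sets above, which all these genes share, so r is no sign of a common function. Wif1 was closest to Pecam1, an endothelial adhesion gene (r = 0.980), followed by Gypc and Carmil1. Frzb was closest to St6galnac3 (r = 0.987), Otor and Trib2, and Sfrp2 to Snx7 (r = 0.995), Slc2a13 and Ndnf. Dkk2 was closest to Alox5ap (r = 0.991), Mitf and Negr1, Sfrp1 to Pgap4 (r = 0.979), Mapre2 and Slc9a3r2, and Sfrp4 to Numb (r = 0.973), Ephb1 and Trim12c. Dkk1 was closest to Rbfox1 (r = 0.956), Ank and Stard8, and Dkk3 to Lnpk (r = 0.972), C330007P06Rik and Mtfr1l. Sfrp5 had the lowest such value of the 9, with Tmem80 (r = 0.923), Troap and Ptprb.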

How the data were processed

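The values are MAS5 signals, an intensity per probe set on a linear scale, deposited by the authors as 1 table for 8 arrays and made with MAS5, per the submitters' processing notes (no version is stated there). The trimmed mean of each array (2% trimmed at each end) is 500.0, as the deposited intensities show, so levels are relative to each array's total. Per the labels, cRNA was made from 5 ug of total RNA. Probe sets were named from the platform annotation of 2016. From there log2(signal + 9) was taken, 9 being about the 10th percentile of all signals, so differences of low genes are understated. Of 18193 genes with a single-gene probe set, 12999 had a mean above the 40th percentile of probe sets (log2 6.12) and were tested. The groups were fitted with limma 3.58.1 in R 4.3.3 (lmFit, contrasts.fit, eBayes with trend, 4 residual degrees of freedom, Benjamini-Hochberg over all genes tested), two-sided, and the same model was run over 23576 probe sets. The model was tested on simulated data with known differences and independent noise on each array. Those data held no sets of arrays like the ones seen here. A signal has no unit of molecules, so signals of different probe sets are not compared.

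All 9 members are named in each comparison. From the 5 further Wnt lists, genes past the threshold and the gene with the smallest p in each direction are named for 5E1 minus 40-1a and cyclopamine minus PBS, with Ptch1 and Gli1 as checks and the 3 most similar genes of each member. The members and lists, markers included, were chosen with earlier results of these data known. Marker lists cover dental mesenchyme and epithelium, skeletal muscle, suprabasal oral epithelium, endothelium, blood and macrophages, bone, cartilage, and nerve and glia. Alternatives were quantile normalization, median centring, pseudocounts of 1 and 32, no filter and a filter at the 60th percentile, eBayes without trend, array weights, the mean of a gene's probe sets, probe sets without x and s suffixes, a replicate block, the sets of arrays as a block (hierarchical clustering with average linkage), the mesenchyme covariate, the compared groups alone, and each array left out in turn.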

Additional observations from a re-analysis of the deposited data

How the results depend on the processing

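No member passed an adjusted p of 0.05 in limma in any of the 6 comparisons under any of the alternatives run. The smallest limma adjusted p of a member was 0.702, shared by Dkk2, Dkk3, Wif1 and Sfrp2 in cyclopamine minus PBS with the replicate block. Of 1164 recomputed member differences 531 equal the main value, most of them because the setting cannot move a difference between group means, and of the other 633, 89 turned sign. Signs were the same throughout for 21 of 54 member differences, among them Dkk1, Dkk3, Wif1, Sfrp2 and Sfrp4 in cyclopamine minus PBS. Over all genes the count called moved from 0 with 3 settings. With the replicate number as a block it was 1 in 5E1 minus 40-1a, 5E1 minus PBS and both agents minus both controls (Ptch1 each time), and with the mesenchyme covariate it was 1 in 5E1 minus 40-1a (Ptch1). With the sets of arrays as a block it was 3 in 5E1 minus 40-1a (Ptch1, Gli1 and Sostdc1). It was 2 in 5E1 minus PBS and 2 in both agents minus both controls (Ptch1 and Gli1), and 3 in the antibody minus cyclopamine effect (Ptch1, Gli1 and Fos). Because this block was found from the data tested, its calls cannot be taken at face value. The replicate numbers were not taken as pairs, because the labels give no shared source and 1 of the 6 pairs of groups (cyclopamine and PBS) had a correlation of 0.0016 between its same-numbered deviations, under the 0.1 required of every pair. The other 5 pairs of groups lay between 0.324 and 0.592. The block cannot move a difference here, since each group holds both numbers, but it moved standard errors (for Dkk2 in 5E1 minus 40-1a 0.24 with the block and 0.71 without it). After quantile normalization the sign turned for Sfrp5 (0.040) in cyclopamine minus PBS, for Sfrp5 (0.013) in 5E1 minus PBS, for Dkk1 (0.0080) in 40-1a minus PBS. With median centring the sign turned for Dkk2 (0.030) and Sfrp1 (0.010) in 5E1 minus 40-1a, for Sfrp5 (0.030) in cyclopamine minus PBS, for Sfrp4 (-0.029) in 40-1a minus PBS. With the mean of a gene's probe sets the sign turned for Dkk3 (0.091) in 5E1 minus 40-1a and Dkk1 (0.055) in the antibody minus cyclopamine effect. With the 3 sets of arrays as a block the sign turned for Dkk2 (0.19), Sfrp1 (0.12) and Frzb (0.045) in cyclopamine minus PBS, for Dkk2 (0.037), Sfrp1 (0.049) and Sfrp2 (0.086) in 5E1 minus PBS, for Dkk1 (0.33), Dkk2 (0.084), Sfrp1 (0.12) and Frzb (0.28) in 40-1a minus PBS, for Dkk2 (0.070), Sfrp1 (0.027) and Sfrp4 (0.13) in both agents minus both controls, for Dkk2 (-0.23), Sfrp1 (-0.19) and Frzb (-0.73) in the antibody minus cyclopamine effect. With the mesenchyme covariate the sign turned for Dkk2 (0.37), Dkk3 (0.0031) and Sfrp1 (0.20) in 5E1 minus 40-1a, for Dkk2 (0.093), Sfrp1 (0.14) and Frzb (0.041) in cyclopamine minus PBS, for Dkk1 (0.021), Dkk2 (0.33), Sfrp2 (0.29) and Sfrp4 (0.016) in 5E1 minus PBS, for Dkk1 (0.25) in 40-1a minus PBS, for Dkk2 (0.23), Sfrp1 (0.17), Sfrp2 (0.068) and Sfrp4 (0.20) in both agents minus both controls, for Frzb (-0.21) in the antibody minus cyclopamine effect. The cause was not tested. Leaving out 1 array at a time turned the sign of these members, given with their lowest and highest values: in 5E1 minus 40-1a Dkk1 (-1.27 to 0.36), Dkk2 (-0.96 to 0.86), Dkk3 (-0.34 to 0.18), Wif1 (-0.90 to 0.39), Sfrp1 (-0.56 to 0.43), Sfrp2 (-0.48 to 0.65), Sfrp4 (-1.15 to 0.073) and Frzb (-1.83 to 0.46), in cyclopamine minus PBS Dkk2 (-1.40 to 0.15), Sfrp1 (-1.10 to 0.44) and Frzb (-1.78 to 0.061), in 5E1 minus PBS Dkk1 (-1.30 to 0.33), Dkk2 (-1.47 to 0.35), Sfrp2 (-0.79 to 0.33), Sfrp4 (-1.10 to 0.13) and Sfrp5 (-0.080 to 0.049), in 40-1a minus PBS Dkk1 (-0.27 to 0.22), Dkk2 (-1.05 to 0.023), Sfrp2 (-0.66 to 0.023), Sfrp4 (-0.41 to 0.52) and Frzb (-1.41 to 0.022), in both agents minus both controls Dkk2 (-0.79 to 0.12), Sfrp1 (-0.58 to 0.19), Sfrp2 (-0.54 to 0.021) and Sfrp4 (-0.42 to 0.19), in the antibody minus cyclopamine effect Dkk1 (-0.84 to 0.78), Dkk2 (-0.33 to 1.49), Sfrp1 (-0.51 to 1.03), Sfrp5 (-0.20 to 0.014) and Frzb (-0.98 to 1.32). A group left with 1 array is assumed to vary like the others. The filter at the 60th percentile left Sfrp5 out, and fitting the compared groups alone was not run for the comparisons that use all 4 groups.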
